A study of Mus musculus with 19 samples.

Results

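The 7 genes described here, *Acta2*, *Tagln*, *Mylk*, *Myh11*, *Cnn1*, *Oxtr* and *Trp63*, mark the myoepithelial cell, the contractile basal cell of the mammary gland. They were found by matching the Ensembl identifiers of the normalized count table to these symbols, which gave 7 of 46078 genes. Myoepithelial cells surround the ducts and alveoli, lie on the basement membrane and carry an actomyosin apparatus much like that of smooth muscle. Oxytocin released during suckling binds its receptor on these cells, raises intracellular calcium, activates myosin light chain kinase and so squeezes milk into the ducts. *Acta2* (smooth muscle actin), *Myh11* (smooth muscle myosin heavy chain), *Mylk* (myosin light chain kinase), *Cnn1* (calponin) and *Tagln* (transgelin, an actin-binding protein) belong to the contractile apparatus, *Oxtr* encodes the oxytocin receptor, and *Trp63* encodes p63, the transcription factor of basal epithelial cells. The contractile genes are not particular to myoepithelium: vascular smooth muscle makes them as well, and activated fibroblasts also make *Acta2* and *Tagln*.

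RNA-seq was performed on 19 tissue samples. The tumor-prone mice were females of a mixed FVB, C57 and BALB/c background, and that of the wild-type mice is not given in the sources used here. Tumors arise in these mice because the MMTV promoter drives unmutated ERBB2 in the mammary epithelium (MMTV-neu). Cells that carry p53wm-R172H make normal p53 unless Cre acts on the allele, after which they make the R172H mutant, and the Fsp promoter directs Cre to fibroblasts (Fsp-Cre). Wild-type glands (MGWT, n = 3) came from age-matched animals. Glands of tumor-bearing mice without malignant lesions formed the groups MGN (n = 4) and MGNP (n = 4), and mammary tumors formed the groups TN (n = 4) and TNP (n = 4). All MGNP and TNP mice were MMTV-neu;p53wm-R172H/+;Fsp-Cre, so their fibroblasts can express mutant p53. All TN mice and MGN replicate 1 were MMTV-neu;Fsp-Cre, whereas MGN replicates 2, 3 and 4 were MMTV-neu;p53wm-R172H/+ without Cre, so that p53 stays wild type throughout. Ages of single animals were not used here, and the library names of TNP replicates 1 and 2 share an animal number, so that the 4 TNP samples may come from 3 mice.

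The libraries differed in ways that go with the groups. Wild-type glands held 54677315 to 62645459 reads on genes, and the other 4 groups held between 20899152 and 27262440, so sequencing depth and the wild-type group cannot be told apart. Tissue make-up differed as well. *Adipoq*, which encodes the fat cell hormone adiponectin, had normalized counts of 1.71, 23.4 and 9.82 in the wild-type glands and of 14468 to 47029 in the 8 glands of tumor-bearing mice. A list of 9 white adipocyte genes took 0.00744 to 0.0116% of the summed normalized counts in MGWT, 1.17 to 1.63% in MGN, 0.450 to 1.06% in MGNP and at most 0.0261% in tumors. A list of 10 luminal epithelial genes, in which *Krt19* was highest in all 3 wild-type glands and *Krt18* or *Epcam* in every tumor, took 0.301 to 0.335% in MGWT, 0.0533 to 0.109% in MGN, 0.0254 to 0.106% in MGNP, 0.344 to 0.722% in TN and 0.378 to 0.491% in TNP. Wild-type libraries therefore held little of the fat cell RNA that glands of tumor-bearing mice held, and more of the epithelial RNA. MGNP also carried skeletal muscle RNA: 12 muscle genes took 2.90, 16.4, 0.109 and 9.22% in replicates 1 to 4, against at most 0.164% in any sample of the other groups. These are bulk tissues, so fewer cells of a type and less RNA per cell cannot be told apart for any of the genes below.

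Genes of the smooth muscle programme are classic targets of serum response factor (SRF), which binds the CArG box, an A- and T-rich stretch between CC and GG. Promoter windows of 250 bases before to 50 bases after the start, from RefSeq on GRCm38.p6, were at hand for *Acta2*, *Cnn1*, *Mylk* and *Oxtr* but not for *Myh11*, *Tagln* and *Trp63*. An exact CArG box on either strand was found in none of the 4 windows, against 1.63% of all 32851 windows of that length. The *Acta2* window held 2 boxes with 1 mismatch each, and 21.1% of all windows held a box that was exact or had 1 mismatch. Of the windows of the smooth muscle apparatus list described below, 3 of 29 (10.3%) held an exact box, and of those of the SRF regulator list 3 of 13 (23.1%). The 30-base stretches below show the boxes, in capitals, of *Acta2*, of 3 partner genes of its apparatus and of *Srf* itself, to set the promoter of a member beside those of genes whose levels are given below.
Acta2, chr19:34255438-34255467, minus strand, 84 bases before the start: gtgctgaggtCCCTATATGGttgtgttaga
Acta2, chr19:34255388-34255417, minus strand, 34 bases before the start: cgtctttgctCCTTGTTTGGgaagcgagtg
Myl9, chr2:156775293-156775322, plus strand: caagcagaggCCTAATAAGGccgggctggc
Myl6, chr10:128493040-128493069, minus strand: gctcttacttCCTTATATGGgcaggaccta
Vcl, chr14:20929161-20929190, plus strand: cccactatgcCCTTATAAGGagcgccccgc
Srf, chr17:46556225-46556254, minus strand: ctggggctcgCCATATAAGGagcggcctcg
Srf, chr17:46556205-46556234, minus strand: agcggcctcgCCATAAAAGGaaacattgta
A match is a description of the letters, not a binding site, and a window without one says nothing of sites elsewhere in the gene.

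All 7 genes stood highest in wild-type glands, lower in glands of tumor-bearing mice and lowest in tumors. *Acta2* (ENSMUSG00000035783, GRCm38 chr19:34241090-34255590, minus strand) had the highest level per kilobase of exon of the 7 in every group. Its normalized counts were 19441, 13576 and 16858 in the MGWT replicates, 2542, 5644, 7458 and 3106 in MGN, and 5606, 4419, 6773 and 2771 in MGNP. In tumors they were 1166, 1061, 2904 and 882 in TN and 1368, 1047, 1922 and 1166 in TNP. The wild-type glands lay above every other sample, and of the tumors TN replicate 3 reached into the range of the MGN and MGNP glands.

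*Tagln* (ENSMUSG00000032085, chr9:45929619-45936058, minus strand), second per kilobase in every group, followed the same order. Its counts were 7081, 5139 and 5797 in MGWT, 1465, 2963, 3776 and 1656 in MGN, and 2630, 2185, 2971 and 1222 in MGNP. Tumor values were 618, 536, 1816 and 486 in TN and 675, 559, 823 and 579 in TNP. Again only TN replicate 3 among the tumors lay within the range of the glands. Exons of *Tagln* overlap exons of *Pcsk7*, a proprotein convertase gene on the opposite strand, and the strand setting of the counting is not given in the sources used here. *Pcsk7* itself had 1341 to 1498 counts in MGWT, 1233 to 1601 in MGN, 1139 to 1496 in MGNP and 1575 to 3563 in the tumors. What reads shared with it add to *Tagln* was not tested.

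*Mylk* (ENSMUSG00000022836, chr16:34745210-35002420, plus strand) encodes the kinase that switches on smooth muscle myosin. It had 10610, 9589 and 10164 counts in MGWT, 2071, 3120, 3431 and 2486 in MGN, and 3998, 2815, 3285 and 2155 in MGNP. TN tumors had 751, 292, 800 and 407 and TNP tumors 576, 727, 1000 and 717. The 3 tissues did not overlap in any sample. Exons of *Mylk* overlap 2 annotated antisense genes that have no row in the table.

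*Myh11* (ENSMUSG00000018830, chr16:14194535-14291372, minus strand) and *Cnn1* (ENSMUSG00000001349, chr9:22099216-22109630, plus strand) were the genes whose tumor levels lay farthest below those of MGN and MGNP. *Myh11* counts were 14267, 9993 and 11111 in MGWT, 3228, 6094, 7389 and 3562 in MGN, and 7584, 5480, 6962 and 3093 in MGNP. They were 265, 148, 377 and 210 in TN and 252, 192, 427 and 207 in TNP, so the highest tumor lay far below the lowest gland. *Cnn1* counts were 2524, 1663 and 2060 in MGWT, 363, 707, 1270 and 517 in MGN, and 1233, 819, 1215 and 445 in MGNP. In TN they were 25.0, 8.43, 122 and 17.5, and in TNP 25.8, 25.6, 27.3 and 18.7. Tumor values of *Cnn1* rest on few reads, from 8 in TN replicate 2 to 121 in TN replicate 3.

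*Oxtr* (ENSMUSG00000049112, chr6:112473683-112489943, minus strand) varied widely between tumors of a group. It had 8149, 8574 and 10615 counts in MGWT, 4120, 1662, 2816 and 1251 in MGN, and 1778, 2332, 1755 and 1197 in MGNP. Tumor counts ran from 36.9 to 1433 in TN (498, 36.9, 1433 and 154) and from 160 to 1167 in TNP (160, 276, 522 and 1167). The coefficient of variation was 119% in TN, where that of *Cnn1* was 123%, and 84.7% in TNP, against 14.5% in MGWT. TN replicate 3 lay within the gland range. *Trp63* (ENSMUSG00000022510, chr16:25683763-25892102, plus strand) had 3936, 3316 and 2867 counts in MGWT, 419, 657, 955 and 464 in MGN, and 709, 983, 559 and 629 in MGNP. It had 82, 28, 108 and 76 in TN and 64, 70, 242 and 316 in TNP, with every gland above every tumor. TNP replicates 3 and 4 held more *Trp63* than any TN tumor, while replicates 1 and 2, which share an animal number, lay within the TN range.

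**Figure D1:**
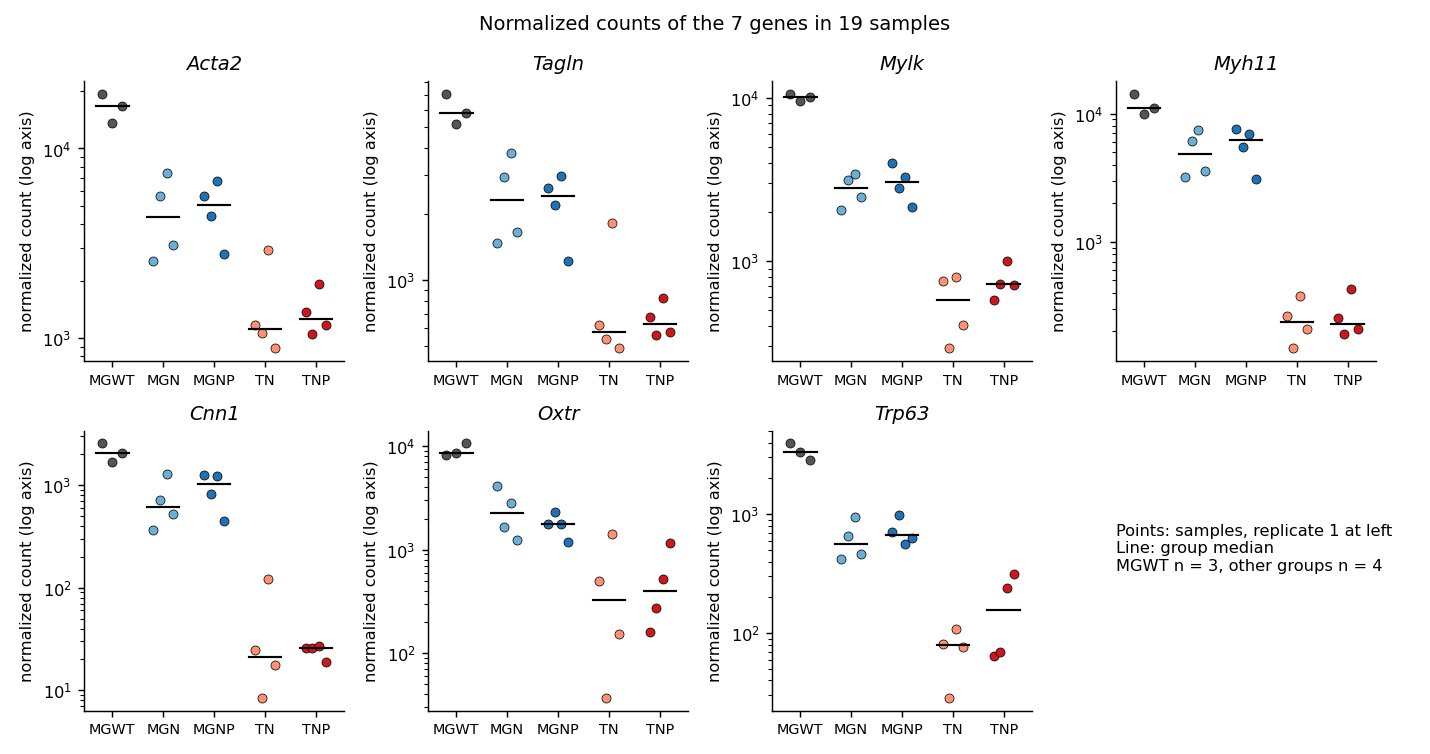
Normalized counts (log axis) of the 7 genes in each sample, by group, with a line at the group median (MGWT n = 3, other groups n = 4). Every gene steps down from wild-type glands to glands of tumor-bearing mice to tumors, and TN replicate 3 is the tumor closest to the glands for *Acta2*, *Tagln* and *Oxtr*.

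Expressed per kilobase of exon, which allows genes to be compared, the order of the members was not fixed. *Acta2* stood at 7571 ± 1339 normalized counts per kb in MGWT (SD, n = 3), 2135 ± 1041 in MGN, 2228 ± 779 in MGNP, 685 ± 429 in TN and 626 ± 177 in TNP (SD, n = 4 each). *Tagln* came next with 3021 ± 497 in MGWT and 332 ± 60.7 in TNP. *Myh11* ranked 4 of the 7 in MGWT, at 1552 ± 292 counts per kb, 3 in MGN and MGNP, at 667 ± 264 and 761 ± 263, and 5 in both tumor groups, at 32.9 ± 12.8 and 35.5 ± 14.2. *Oxtr* ranked 3 in MGWT (1902 ± 275), 4 in MGN (514 ± 269) and MGNP (369 ± 96.8) and again 3 in TN (111 ± 132) and TNP (111 ± 94.0). Its spread overlapped that of *Myh11* in MGWT and MGN, and its tumor spread overlapped that of *Mylk*, the next in order at 49.9 ± 22.3 in TN and 67.0 ± 15.7 in TNP. *Trp63*, a transcription factor gene, was lowest per kb in every group except TNP, where it stood at 20.6 ± 15.03 and *Cnn1* at 8.90 ± 1.40.

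The first question was whether glands of tumor-bearing mice differ from wild-type glands. All 7 genes were lower in MGN than in MGWT by limma at an adjusted p below 0.05 and a change of at least 2-fold, and in all 7 the groups did not overlap. The background was high, since 17.9% of the 19017 genes tested were called lower, and 29.8% were lower without overlap between the groups. The median log2 fold change of the 7 was -1.89, and that of all genes tested 0.02. *Trp63* differed most, by a log2 fold change of -2.50 ± 0.28 (SE, adjusted p = 0.000156), or 5.65-fold on the scale of log2(normalized count + 1). *Oxtr* followed at -2.03 ± 0.37 (adjusted p = 0.00202, but 0.064 in a single fit of all 5 groups), *Acta2* at -1.95 ± 0.36 (0.00211) and *Mylk* at -1.89 ± 0.18 (6.34e-05). *Cnn1* at -1.68 ± 0.38, *Tagln* at -1.38 ± 0.33 and *Myh11* at -1.29 ± 0.30 changed least.

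MGNP glands, compared with the same 3 wild-type glands, gave the same calls for all 7 genes, where 16.2% of 19065 genes tested were called lower and 27.9% were lower without overlap. *Oxtr* was the farthest below wild type, at a log2 fold change of -2.40 ± 0.23 (adjusted p = 0.000372), followed by *Trp63* at -2.25 ± 0.22 (0.000395). *Acta2* differed by -1.82 ± 0.31, *Mylk* by -1.76 ± 0.21 and *Tagln* by -1.48 ± 0.31. *Myh11* (-1.09 ± 0.32, adjusted p = 0.0258) and *Cnn1* (-1.25 ± 0.37, adjusted p = 0.027) lay closest to the threshold, and both calls ended when any 1 of the wild-type glands was left out (adjusted p from 0.0505 to 0.1) or when MGNP replicate 4 was left out (log2 fold changes of -0.82 and -0.94, under 2-fold). The *Cnn1* call also ended without MGNP replicate 2 (adjusted p = 0.0532) and in a single fit of all 5 groups (0.107). With a skeletal muscle score, the mean log2 level of the 12 muscle genes, as a covariate, 2 of the 7 calls held, those of *Oxtr* and *Trp63*, and the log2 fold changes of *Acta2*, *Tagln*, *Myh11*, *Cnn1* and *Mylk* were -0.54, -0.34, -0.10, 0.084 and -1.21, but that score itself separates MGNP from MGWT completely. Without MGNP replicates 2 and 4, those with the most muscle RNA, *Myh11* and *Cnn1* were under 2-fold (-0.68 and -0.75). With MGNP replicate 3 alone, the MGNP gland with the least muscle RNA, taken to vary as the wild-type glands do, they were -0.74 and -0.76. The other 5 genes kept their calls in both of these fits. Because both comparisons used the same wild-type samples, they are not independent of each other, and the difference in adipocyte, luminal and muscle RNA given above goes with each of them. The part of adipocyte and luminal RNA in the result was not tested, and that of muscle RNA cannot be told apart from the group by the score.

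The study was built to ask what mutant p53 in fibroblasts does. None of the 7 genes was called between MGNP and MGN, where limma called 0 of 18563 genes in either direction, 1950 having an unadjusted p below 0.05. Of the same genes DESeq2 on the recovered reads called 514 and edgeR 0, and neither called a member. Without MGNP replicate 3, the MGNP gland with the least muscle RNA, limma called 297 genes higher and 21 lower, and without any other single gland 0. Log2 fold changes ran from -0.37 ± 0.38 for *Oxtr* (unadjusted p = 0.355, the smallest of the 7) to 0.42 ± 0.45 for *Cnn1*, and the sample ranges overlapped for all 7, where 4.15% of genes tested were lower and 2.06% higher without overlap. Standard errors of 0.23 to 0.45 on the log2 scale leave room for differences of either sign. Between TNP and TN, again 0 of the 7 were called, with 0.0421% of 16638 genes called in either direction (6 higher, 1 lower) and 1210 with an unadjusted p below 0.05. Without TN replicate 1 limma called 34 higher and 18 lower, and without any other single tumor 0. All 7 ranges overlapped, against 1.57% of genes lower and 2.64% higher without overlap. *Trp63* showed the largest difference, a log2 fold change of 1.03 ± 0.62 (unadjusted p = 0.135, adjusted p = 0.742), with TNP replicates 3 and 4 above all TN tumors. *Mylk* differed by 0.52 ± 0.34, *Oxtr* by 0.67 ± 1.06, and *Acta2* by 0.00 ± 0.37. For the difference between mutant and wild-type p53 in the change from gland to tumor, limma's interaction contrast called 0 of the 7 and 0 of 19367 genes, 1536 of which had an unadjusted p below 0.05, while edgeR called 0 and DESeq2 356 genes, none of them a member. Without MGNP replicate 3 limma called 195 genes in this contrast, without TN replicate 1 it called 23, without MGNP replicate 4 it called 2, and without any other single sample 0. The interaction was largest for *Oxtr*, at 1.04 ± 1.22 on the log2 scale (adjusted p = 0.894). The comparison of MGNP with MGN also sets 4 mice carrying Fsp-Cre against a group in which 1 of 4 mice carried it.

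Tumors were then compared with glands of mice with the same p53 state in fibroblasts. TNP and MGNP shared 1 genotype, but TN tumors, all MMTV-neu;Fsp-Cre, matched only 1 of the 4 MGN glands in genotype, so the alleles of the other 3 MGN mice go with tissue in that comparison. In TN all 7 genes were lower than in MGN by the same rule, where 22.3% of 17950 genes tested were called lower. The fall was uneven. *Cnn1* differed by a log2 fold change of -4.55 ± 0.74 (adjusted p = 0.00133), or 23.5-fold, and *Myh11* by -4.33 ± 0.35 (adjusted p = 7.57e-05), or 20.2-fold. *Trp63* differed by -3.14 ± 0.44 (8.81-fold), *Oxtr* by -3.12 ± 0.99 (adjusted p = 0.0274) and *Mylk* by -2.40 ± 0.34. *Acta2*, at -1.68 ± 0.45 (3.20-fold, adjusted p = 0.0132), and *Tagln*, at -1.63 ± 0.46 (adjusted p = 0.0176), changed least. For 4 of the 7 genes the groups did not overlap, against 26.4% of all genes tested lower without overlap. *Acta2*, *Tagln* and *Oxtr* overlapped through TN replicate 3. That tumor also had the highest share of 10 fibroblast genes, at 1.05% of summed normalized counts against 0.127 to 0.169% in the other 3 TN tumors. It was highest as well in skeletal muscle (0.164% against 0.00172 to 0.0283%), white adipocyte (0.0261% against 0.00250 to 0.0123%), endothelial (0.0236% against 0.0141 to 0.0153%) and pericyte and vascular smooth muscle genes (0.123% against 0.0810 to 0.112%). Whether these bear on its values was not tested. Without it the *Cnn1* log2 fold change was -5.28 and that of *Oxtr* -3.95, and without TN replicate 2 that of *Oxtr* was -2.21. The *Oxtr* call was lost with edgeR (-2.19, adjusted p = 0.0815) and without MGN replicate 1, MGN replicate 3 or TN replicate 4 (adjusted p from 0.063 to 0.0709).

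In mice with mutant p53 in fibroblasts all 7 genes were lower in TNP than in MGNP and none overlapped, where 24% of 17880 genes tested were called lower and 27.4% were lower without overlap. *Cnn1* (-5.10 ± 0.35 on the log2 scale, adjusted p = 1.8e-05, 34.3-fold) and *Myh11* (-4.41 ± 0.34, adjusted p = 2.78e-05, 21.3-fold) again differed most. *Trp63* differed by -2.36 ± 0.53, *Oxtr* by -2.08 ± 0.55, *Mylk* by -2.01 ± 0.23, *Acta2* by -1.79 ± 0.29 and *Tagln* by -1.71 ± 0.28. In both comparisons the heavy chain of smooth muscle myosin and calponin thus stood more than 20-fold lower in tumors than in glands, and smooth muscle actin and transgelin 3.10- to 3.47-fold lower. With the muscle score as a covariate *Oxtr* and *Trp63* were no longer called (both -1.01, adjusted p = 0.408 and 0.343), but that score, 9.28 to 17.4 in MGNP and 3.30 to 8.63 in TNP, separates these groups completely too. With MGNP replicate 3 alone, taken to vary as the tumors do, they were -2.11 and -2.03 (adjusted p = 0.164 and 0.171). *Acta1*, the skeletal muscle actin that shares much sequence with *Acta2*, had 435922 counts in MGNP replicate 2, where *Acta2* had 4419, and 2007 in MGNP replicate 3, where *Acta2* had 6773.

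Against wild-type glands all 7 genes were lower in TN and in TNP without overlap, with 25% of 18236 and 28% of 18233 genes tested called lower, and 32.4% and 37.2% lower without overlap. These comparisons share the wild-type glands with the first ones. *Cnn1* was 75.1-fold lower in TN and 81.8-fold lower in TNP, *Myh11* 49.2-fold and 45.4-fold, and *Tagln*, the least changed, 8.09-fold and 9.13-fold. *Trp63* was 49.8-fold lower in TN and 24.4-fold in TNP, and *Oxtr* 35.6-fold and 22.3-fold. These calls held under every alternative that was run, while the *Cnn1* and *Oxtr* log2 fold changes in TN of -6.23 ± 0.77 and -5.15 ± 1.07 became -5.52 and -4.04 with edgeR, -6.95 and -5.98 without TN replicate 3, and for *Oxtr* -4.24 without TN replicate 2.

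**Figure D2:**
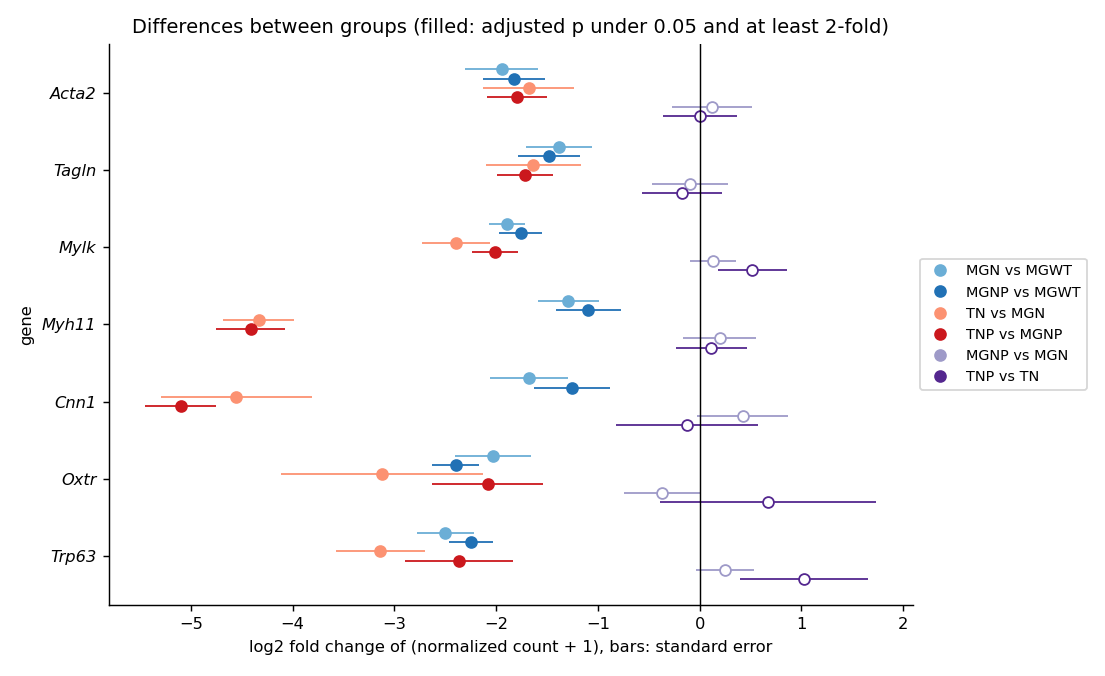
Log2 fold changes of the 7 genes with standard errors in 6 comparisons, filled where the adjusted p was below 0.05 and the change at least 2-fold. *Myh11* and *Cnn1* sit beyond -4 in both tumor comparisons and between -1 and -2 against wild type, and the 2 comparisons of mutant with wild-type p53 are open circles, from -0.37 to 1.03.

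The ratio of each gene to *Acta2* within a sample describes this unevenness without the scaling between libraries. The ratios are of normalized counts, not corrected for length, so each is read across samples only. *Myh11* to *Acta2* was 0.659 to 0.736 in MGWT, 0.991 to 1.35 in the 8 glands of tumor-bearing mice and 0.130 to 0.238 in the 8 tumors, so the 3 tissues did not overlap. *Cnn1* to *Acta2* was 0.122 to 0.220 in the 11 glands and 0.00794 to 0.0421 in the tumors. *Tagln* kept close to *Acta2*, at 0.344 to 0.379 in MGWT and 0.428 to 0.625 in all other samples, with no step from gland to tumor. *Mylk* to *Acta2* overlapped between all groups, at 0.275 to 0.815. The ratio of *Oxtr* to *Acta2* was 1.62 in MGN replicate 1, the MMTV-neu;Fsp-Cre gland, and 0.294 to 0.403 in the 3 other MGN glands, and it was 1.001 in TNP replicate 4 and 0.0348 in TN replicate 2. MGN replicate 1 thus had the lowest *Acta2* and the highest *Oxtr* of its group. As the only gland of its genotype it gives no test of that genotype.

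**Figure D3:**
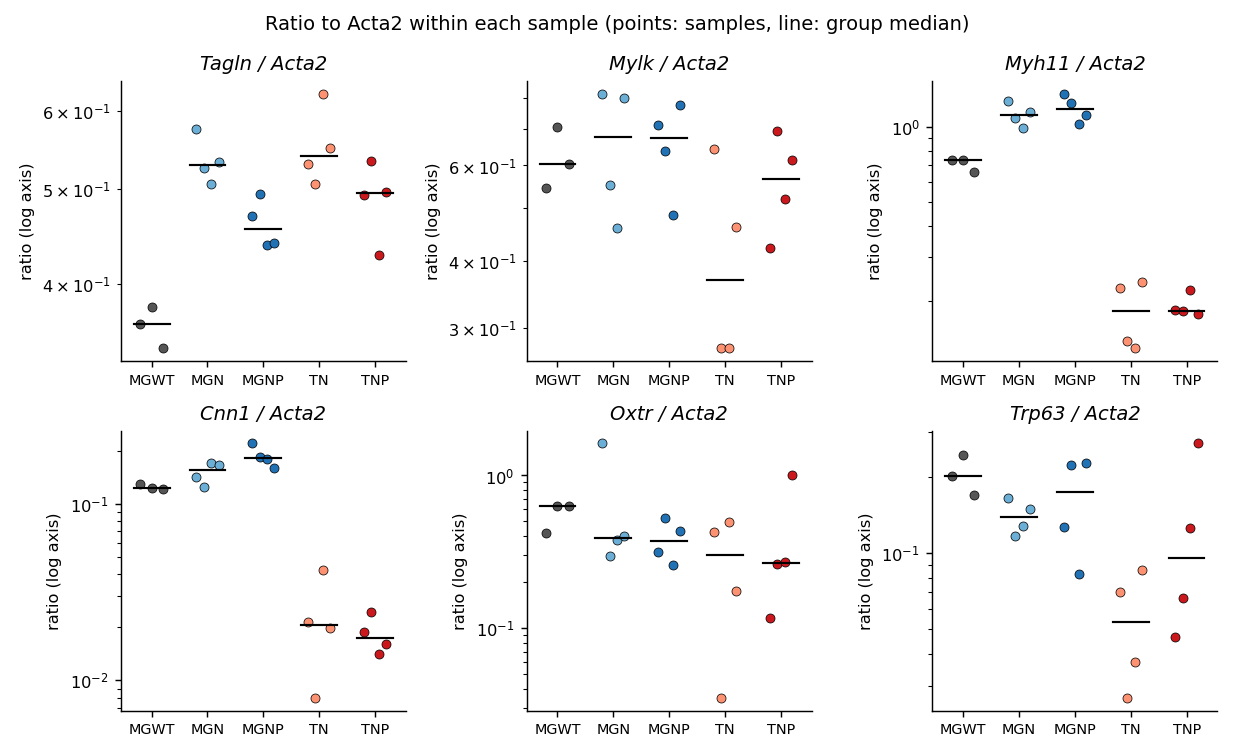
Ratio of normalized counts of 6 genes to *Acta2* within each sample (log axes, axis ranges differ), by group, with a line at the group median. *Myh11* and *Cnn1* fall relative to *Acta2* in all 8 tumors, *Tagln* does not, and *Oxtr* has single high samples in MGN and TNP.

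Samples of a group also varied together. After the group mean was taken from the log2 values, Pearson's r over the 19 samples was 0.738 to 0.984 among the 5 contractile genes (median 0.859 over 10 pairs), highest for *Acta2* with *Tagln* at 0.984. *Oxtr* correlated less with the 5, at 0.405 to 0.691, and so did *Trp63*, at 0.425 to 0.621, while *Oxtr* and *Trp63* gave 0.733 with each other. These are descriptions of shared variation, since the values of a sample share library, scaling and tissue piece.

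**Figure D4:**
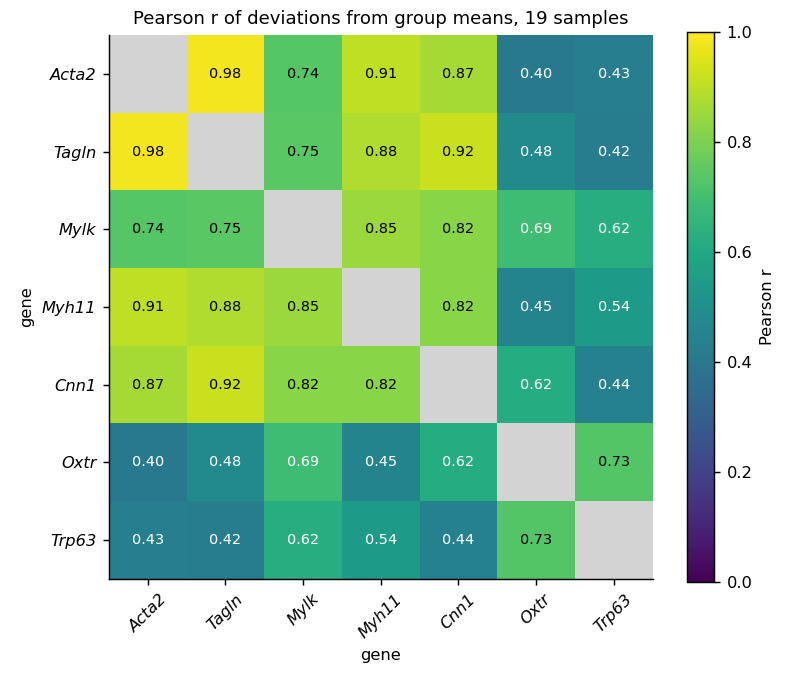
Pearson's r between genes of the deviations of log2(normalized count + 1) from group means, over 19 samples. The 5 contractile genes form a block of high values in which *Acta2* and *Tagln* reach 0.98, and *Oxtr* and *Trp63* stand apart from it.

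Over all 19 samples, the genes whose log2 values were most like the mean of the 5 contractile genes, among 13349 genes with a mean of at least 100 normalized counts, were *Krt5* (r = 0.987), *Mrvi1* (0.986), *Nkd1* (0.986), *Col17a1* (0.985), *Ntng1* (0.984), *Krt14* (0.982), *Lama3* (0.982) and *Irx4* (0.981). *Krt5* and *Krt14* encode the basal keratins, *Col17a1* and *Lama3* parts of the anchorage to the basement membrane, *Mrvi1* a substrate of cGMP-dependent kinase in smooth muscle, and *Irx4* a homeobox factor. *Trp63* was most like *Itprid1* (0.983), *Olfml2a* (0.970), *Krt14* (0.966), *Slc7a2* (0.966) and *Kcnip3* (0.962). The genes nearest to *Oxtr* were *Fam167a* (0.932), *Sgsm1* (0.931), *Selp* (0.926), *4933421O10Rik* (0.925) and *Sele* (0.925), where *Selp* and *Sele* encode adhesion molecules of the endothelium. With the group means removed, *Krt14* kept r = 0.888 with the contractile mean and *Krt5* 0.847. These r values mostly carry the differences between groups that all these genes share.

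The wider smooth muscle apparatus held genes that moved with the 7 and genes that did not. Of 24 listed genes for smooth muscle filaments, their anchors and the regulators of myosin phosphorylation, all were tested, and 6 were called lower and 0 higher in MGN than in MGWT, with a list median of -0.50, where 17.9% of all genes were called lower and 19.1% higher. *Ppp1r14a*, an inhibitor of myosin phosphatase, differed by -2.16 ± 0.43, the actin crosslinker *Actn1* by -2.08 ± 0.14, smoothelin (*Smtn*) by -2.01 ± 0.24 and *Pdlim7* by -1.74 ± 0.26, while *Myl9*, the regulatory light chain, had 916 to 1823 counts in MGN and 1647 to 2073 in MGWT. In MGNP 5 were called lower and 2 higher, against 16.2% of all genes lower and 16.4% higher. The 2 higher genes, *Tpm2* (4.14 ± 1.26) and desmin (*Des*, 3.79 ± 1.30), are also made by skeletal muscle. In TN against MGN 3 were called lower, 2 higher and 19 neither (median -0.22), where 22.3% of all genes were called lower and 12.8% higher. *Synpo2*, an actin-bundling protein of muscle, was the farthest down at -4.22 ± 0.35, with 109 to 289 counts in TN and 2042 to 4442 in MGN. *Myl9* differed by -2.24 ± 0.53 and the myosin phosphatase subunit *Ppp1r12b* by -1.19 ± 0.15, whereas *Ppp1cb*, its catalytic partner, was higher by 1.07 ± 0.18. In TNP against MGNP 8 were called lower and 2 higher, against 24% of all genes lower and 14.7% higher, and the 4 farthest down, *Des* (-5.80 ± 1.15), *Tpm2* (-5.67 ± 1.09), *Synpo2* (-5.05 ± 0.43) and *Synm* (-3.84 ± 0.82), are all genes that skeletal muscle makes as well. Against wild-type glands 10 of 24 were called lower in TN and 13 in TNP, with 1 higher in each, against 25% and 28% of all genes lower and 17.4% and 19.8% higher. That gene was the essential light chain *Myl6* (1.33 ± 0.18 in TN, 1.51 ± 0.12 in TNP), while vinculin (*Vcl*) was lower (-1.38 ± 0.36 and -1.43 ± 0.15), both shown for the boxes in their promoter windows. Neither comparison of mutant with wild-type p53 called a member of the list.

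Of 9 listed regulators of SRF-dependent transcription, 7 were called lower in MGN and 6 in MGNP than in MGWT, with medians of -1.44 and -1.26, against 17.9% and 16.2% of all genes. *Myocd*, the myocardin coactivator of smooth muscle genes, had 118 to 141 counts in MGWT, 14.1 to 40.2 in MGN and 17.1 to 24.5 in MGNP, a log2 fold change of -2.55 ± 0.36 and -2.72 ± 0.25. *Srf* itself differed by -1.66 ± 0.13 in MGN, *Mrtfa* by -1.56 ± 0.22 and *Tead1* by -1.504 ± 0.14. In MGNP *Mrtfb* differed by -1.41 ± 0.19, *Yap1* by -1.37 ± 0.15 and *Fhl2*, a coregulator, by -1.33 ± 0.24. From gland to tumor 2 of 9 were called lower in TN and 1 in TNP, where 22.3% and 24% of all genes were. In TN *Myocd* (-2.08 ± 0.47, 2.33 to 9.09 counts) and *Tead1* (-1.17 ± 0.21) were called lower and 7 of 9 were not called. In TNP *Tead1* was called lower (-2.49 ± 0.45), *Fhl2* higher (1.04 ± 0.25), and 7 of 9 were not called. *Tead1* in MGNP had 2111, 6891, 1545 and 4756 counts, highest in the replicates with the most skeletal muscle RNA. *Srf* had 707 to 926 counts in MGN, 1004 to 1453 in MGNP, 944 to 1594 in TN and 1098 to 1328 in TNP. Its log2 fold change was 0.56 in TN against MGN (adjusted p = 0.0335, under 2-fold) and -0.038 in TNP against MGNP (adjusted p = 0.857).

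Acting after the oxytocin receptor are the G protein Gq, phospholipase C, the IP3 receptors and calmodulin. Of 18 listed genes 17 were tested in each comparison, and *Oxt*, the hormone gene, was not, since it had at most 2.99 normalized counts in any sample, below the minimum of 10. In MGN 2 were called lower than in MGWT, the IP3 receptor *Itpr3* (-1.20 ± 0.13) and the calcium channel *Cacna1c* (-1.11 ± 0.25), and in MGNP 3, *Cacna1c* (-1.43 ± 0.26), *Gnaq* (-1.26 ± 0.12) and *Itpr3* (-1.09 ± 0.38), against 17.9% and 16.2% of all genes. In tumors genes were called in both directions, where 22.3% of all genes were lower and 12.8% higher in TN, and 24% and 14.7% in TNP. In TN 2 were lower than in MGN, *Cacna1c* (-2.46 ± 0.38) and the phospholipase *Plcb1* (-2.26 ± 0.53), and 4 were higher, led by *Itpr3* (1.95 ± 0.16) and the store-operated channel *Orai1* (1.51 ± 0.25). In TNP 3 were lower than in MGNP, led by *Plcb1* (-1.92 ± 0.36) and *Cacna1c* (-1.84 ± 0.47), and 4 higher, led by *Itpr3* (1.74 ± 0.33) and *Calm2* (1.53 ± 0.13). The list median was 0.35 in TN and 0.28 in TNP, against -3.12 and -2.08 for *Oxtr*. Against wild type, *Cacna1c* differed by -3.57 ± 0.36 in TN and -3.27 ± 0.46 in TNP.

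Genes of basal identity were read next. Of 18 listed keratins, adhesion and basement membrane genes, 15 were called lower in MGN and 17 in MGNP than in MGWT (medians -2.24 and -2.29), against 17.9% and 16.2% of all genes. *Krt17* differed by -3.75 ± 0.62 and -4.10 ± 0.57, *Krt14* by -3.73 ± 0.42 and -3.65 ± 0.40, the adhesion receptor gene *Nectin1* by -3.57 ± 0.28 and -3.65 ± 0.33. *Col17a1* differed by -3.50 ± 0.34 in MGN and *Sfn* by -3.71 ± 0.40 in MGNP. From gland to tumor the list divided, with 9 called lower and 4 higher in TN and 7 lower and 4 higher in TNP, against 22.3% of all genes lower and 12.8% higher in TN and 24% and 14.7% in TNP. Among those higher in both were *Perp*, a desmosome protein gene (2.34 ± 0.30 and 2.43 ± 0.27), and the integrin subunits *Itgb4* (2.13 ± 0.31 and 1.06 ± 0.16) and *Itga6* (1.65 ± 0.21 and 1.77 ± 0.18). The list's share of summed normalized counts was 0.330 to 0.348% in MGWT, 0.0930 to 0.123% in MGN, 0.0507 to 0.115% in MGNP, 0.138 to 0.186% in TN and 0.128 to 0.148% in TNP. *Itga6* was the highest gene of the list in all 8 tumors and so weighs heavily on the tumor sums. The mean log2 level of the list was 11.9 in MGWT, 9.59 in MGN, 9.56 in MGNP, 7.58 in TN and 7.91 in TNP. *Krt5* had 512 to 1691 counts in MGN and 3.41 to 26.3 in TN, a log2 fold change of -6.91 ± 0.64, and differed by -6.49 ± 0.45 in TNP. *Col17a1* differed by -7.02 ± 0.56 and -6.34 ± 0.49, and *Krt14* by -5.80 ± 0.64 and -4.55 ± 0.42. *Irx4* had 34.4 to 336 counts in MGN and 47.8 to 197 in MGNP and lay at 3 or fewer reads in all 8 tumors. Against wild-type glands 14 of 18 were lower in each tumor group, against 25% and 28% of all genes, with *Krt5* at -9.99 ± 0.63 and -9.30 ± 0.40 on the log2 scale. *Krt17* was the only gene of these 4 lists that limma called between the tumor genotypes, higher in TNP by 2.41 ± 0.28 (adjusted p = 0.0434), at 232 to 329 counts against 40.4 to 79.4 in TN. No gene was called in that comparison when TNP replicates 1 and 2 were averaged, with edgeR, or in 7 of the 8 fits that left out 1 tumor.

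**Figure D5:**
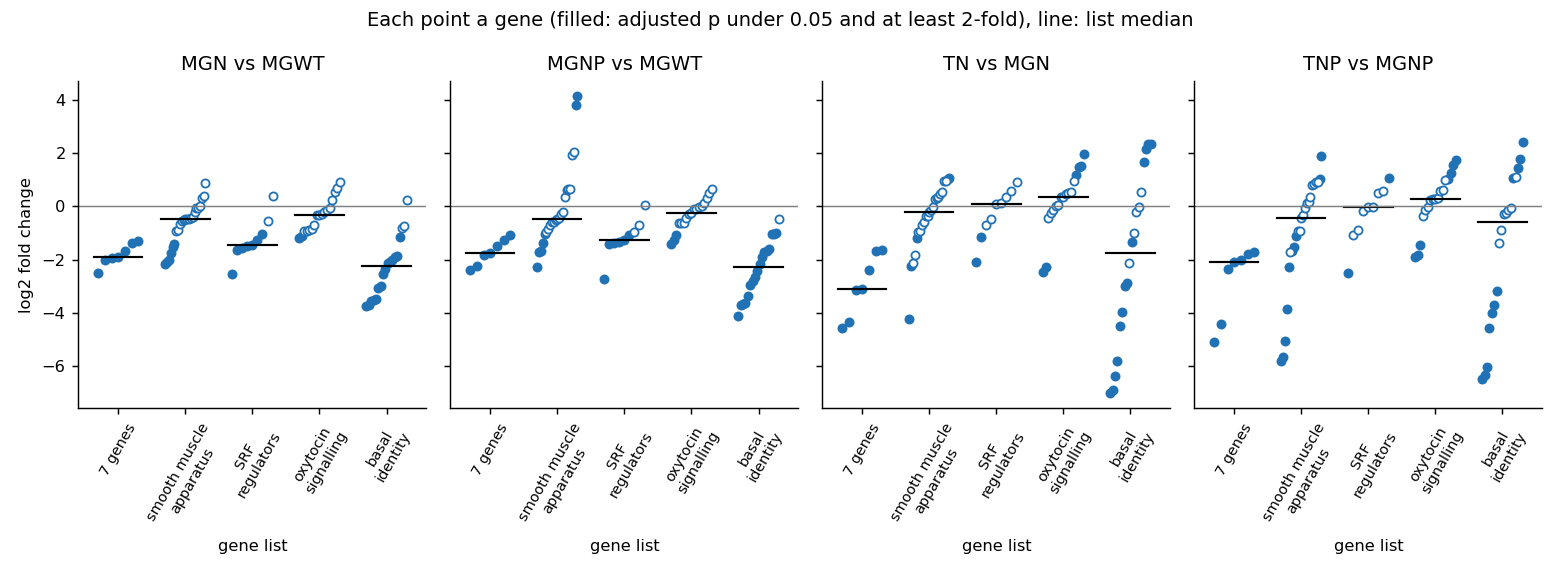
Log2 fold changes of the 7 genes and of the genes of 4 related lists in 4 comparisons, each point a gene, filled where called, with a line at the list median. The 7 genes are below 0 in every panel, the smooth muscle, SRF and oxytocin lists spread around 0 from gland to tumor, and the basal list reaches from above 2 to about -7.

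Paralogs of the members could share reads with them. Of 15 listed, 4 were called lower and 4 higher in MGN than in MGWT, and 4 of 14 tested each way in MGNP, against 17.9% of all genes lower and 19.1% higher in MGN and 16.2% and 16.4% in MGNP. Those lower in MGN were *Myh14* (-2.12 ± 0.18), *Actc1* (-2.09 ± 0.70), *Cnn3* (-1.38 ± 0.18) and *Tagln2* (-1.21 ± 0.23), and in MGNP *Cnn3* (-1.77 ± 0.21), *Myh14* (-1.46 ± 0.27), *Tagln2* (-1.31 ± 0.29) and *Actg1* (-1.24 ± 0.25). In TN 1 of 13 was called lower than in MGN and 2 higher, and in TNP 5 of 14 lower than in MGNP and 4 higher, against 22.3% and 12.8% of all genes in TN and 24% and 14.7% in TNP. Against wild type, *Actc1* differed by -4.23 ± 0.59 in TN and -3.68 ± 0.71 in TNP and *Tagln2* by -1.43 ± 0.34 and -1.24 ± 0.16. Per kb both cytoplasmic actins stood above *Acta2* in every group, *Actb* at 25273 in MGWT, 24025 in MGN, 21618 in MGNP, 40263 in TN and 44637 in TNP, and *Actg1* at 10126, 5172, 4378, 16797 and 15966. *Actg1* was called higher in TN than in MGN (1.62 ± 0.29). The enteric smooth muscle actin *Actg2* was low, at 234 in MGWT, 109 in MGN, 107 in MGNP, 97.6 in TN and 93.7 in TNP, and cardiac actin *Actc1* lay between 2.28 and 54.9. *Acta1* was at 9.33 in MGWT, 1026 in MGN, 120828 in MGNP, 1144 in TN and 421 in TNP. *Tagln2*, the more widely expressed transgelin, stood at 2570 in MGWT and between 1008 and 1120 in the other groups, with no step from gland to tumor, and *Tagln3* at 3.86 to 12.4. *Cnn2* (732 to 934) and *Cnn3* (561 to 1907) were above *Cnn1* in both tumor groups. The non-muscle myosins *Myh9* (1918 to 2770) and *Myh10* (109 to 204) were not called between MGN and TN, while *Myh14*, the epithelial one, was higher in TN than in MGN (1.84 ± 0.19). The kinases *Mylk2* and *Mylk4* reached 2505 and 734 in MGNP, with a log2 fold change from MGWT of 9.29 ± 1.80 and 8.23 ± 1.69, and *Mylk3* was at most 5.14 in any group.

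Markers of other cell types, some of which make smooth muscle proteins, were read beside these results. A list of 12 pericyte and vascular smooth muscle genes, in which *Notch3* was highest in all wild-type glands and *Itga8* in all tumors, took 0.0781 to 0.101% of summed normalized counts in MGWT, 0.0773 to 0.1197% in MGN, 0.0645 to 0.0878% in MGNP, 0.0810 to 0.123% in TN and 0.0594 to 0.0823% in TNP. Against MGWT 5 of the 12 were called higher and 2 lower in MGN (median 0.71), and 5 higher and 3 lower in MGNP (median 0.68). Of all genes 19.1% and 16.4% were called higher there and 17.9% and 16.2% lower. *Notch3*, among those lower (-2.18 ± 0.25 and -2.27 ± 0.25), had 10974 to 12572 counts in MGWT and so weighs heavily on the wild-type sums. From gland to tumor 4 of the 12 listed genes were called lower and 1 higher in either comparison, near the shares of all genes (22.3% and 24% lower, 12.8% and 14.7% higher). The one that rose, *Itga8*, had 8434 to 15953 counts in TN and 4628 to 11231 in TNP, against 517 to 2364 in the glands of tumor-bearing mice. Without it, a choice made after its values were seen, the sum was 0.0719 to 0.0920% in MGWT, 0.0750 to 0.118% in MGN and 0.0616 to 0.0837% in MGNP, and lower in tumors, at 0.0462 to 0.0650% in TN and 0.0422 to 0.0547% in TNP. All 10 luminal genes were called lower in MGN and in MGNP than in MGWT (medians -2.49 and -2.57), where 17.9% and 16.2% of all genes were, while 8 were higher in TN than in MGN and 9 in TNP than in MGNP, and *Krt19* was lower in both (-5.14 and -4.01). Of all genes 12.8% and 14.7% were higher in these 2 comparisons and 22.3% and 24% lower. Endothelial genes fell from gland to tumor, all 8 of 8 in both comparisons (medians -2.47 and -2.63), the sum going from 0.0589 to 0.139% in those glands to 0.0129 to 0.0236% in tumors. The sum of the 10 fibroblast genes, of which *Col3a1* was highest in 17 of the 19 samples, was 0.204 to 0.305% in MGWT, 0.601 to 2.06% in MGN, 0.254 to 0.738% in MGNP, 0.127 to 1.05% in TN and 0.117 to 0.228% in TNP. What these cells contribute to each of the 7 genes was not tested.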

How the data were processed

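RNA from mammary glands and tumors was sequenced as paired 75-base reads. Per the labels and the study's methods, reads were aligned with TopHat2 (2.1.1) and Bowtie2 to GRCm38 (mm10), counted per gene and normalized with DESeq2. The counting tool, annotation and strand setting are not given in the sources used here, and the RNA kit is named differently in the labels and the methods. The authors deposited gene counts divided by size factors, a signal that is comparable between samples. Dividing by the value of 1 read returned whole reads, within 0.05, for 100% of values, which gave the depth of each library. Of 46078 identifiers 98.16% were found in GENCODE vM21, which gave their positions.

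Differences were tested with limma (3.58.1) with an intensity trend on log2(normalized count + 1), on the 2 groups compared, for genes with at least 10 normalized counts in as many samples as the smaller group has, with Benjamini-Hochberg adjustment over all of them. A gene was called at an adjusted p below 0.05 and at least 2-fold, the interaction contrast over 16 samples at the adjusted p alone. Fold changes on this scale understate those of low genes. edgeR (4.0.16) and DESeq2 (1.42.0) were run on recovered reads as alternatives, with other pseudocounts, filters, scalings and left-out replicates. The fits were also tested on simulated data, the outcome of which is not given here. Library names of glands and tumors from tumor-prone mice carry numbers. Only 2 TNP library names share one, so no gland shares a number with a tumor. Nothing else in the labels says more of replicates than that they are separate samples, so p-values measure the spread between these samples. Samples of the same replicate number did not deviate together (r from -0.28 to 0.319 between deviations from group means), so replicate numbers pair nothing. The 7 genes, the lists and the tests were chosen with earlier results of these data known. Named from the lists were up to 4 called genes with the largest change in a comparison, the most abundant gene of other cell types, all 15 paralogs, and the genes most like the members; single genes shown for their values or for skeletal muscle origin were chosen after their values were seen. The values of 1 gene each of the oxytocin signalling and basal lists are not reported here.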

Additional observations from a re-analysis of the deposited data

Results flagged for a closer look

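In each group of 4, the highest and the lowest sample of the 7 genes and of the other genes named were compared with the rest by Dixon's ratio, the gap to the nearest sample over the whole range, on log2 values. Of 316 groups tested 13 held such a sample, and chance gives about 1 in 20. Among the 7 genes it was *Cnn1* in TNP replicate 4, at 18.7 normalized counts (ratio 0.832), a group that spans only a few reads. *Myocd* was high in MGNP replicate 4 (24.5 counts, 0.968), and *Cacna1c* was low in the same gland (325 counts, 0.919), as were *Epcam* (1458 counts, 0.886) and *Notch3* (1494 counts, 0.913). *Srf* was high in TNP replicate 2 (1328 counts, 0.836). *Orai1* stood apart in TN replicate 3 (1298 counts, 0.949). *Actb* stood apart in TN replicate 1 (76450 counts, 0.890). *Myh14* stood apart in TN replicate 4 (3760 counts, 0.857) and in TNP replicate 4 (3734 counts, 0.844). *Myl6* stood apart in TNP replicate 1 (10221 counts, 0.850). *Mylk2* (0 counts, 0.853) and *Mylk4* (4.12 counts, 0.862) were low in MGN replicate 4, the MGN gland with the least skeletal muscle RNA (0.0155% of summed normalized counts).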

How the results depend on the processing

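Of 1259 member fold changes recomputed under the alternatives, 1182 kept their direction and their side of the threshold, 29 lost their call and 48 changed sign. All sign changes but 1 were in the genotype and interaction contrasts, where no member was called under any alternative. The exception was *Cnn1* in MGNP against MGWT, at 0.084 with the skeletal muscle score as a covariate, the setting that left 2 members called there and whose score separates the 2 groups completely. The same covariate gave 0.11 for *Tagln* and -0.18 for *Trp63* in MGNP against MGN, and 0.15, 0.16, 0.0014 and 0.25 for *Acta2*, *Myh11*, *Cnn1* and *Tagln* in the interaction. Leaving out MGNP replicates 2 and 4, chosen after seeing the data, gave *Tagln* 0.29 in MGNP against MGN, and leaving out 1, 2 and 4, with the lone gland taken to vary like the other group, gave *Tagln* 0.38 and *Trp63* -0.081. In TNP against TN *Acta2* was -0.13 with edgeR and -0.14 with DESeq2, and *Oxtr* -0.010 with DESeq2. Leaving out 1 replicate at a time, values ran in MGNP against MGN from -0.13 to 0.39 for *Acta2*, -0.0072 to 0.29 for *Mylk* and -0.31 to 0.17 for *Tagln*. In TNP against TN they ran from -0.19 to 0.38 for *Acta2*, -0.13 to 0.34 for *Myh11*, -0.63 to 0.60 for *Cnn1*, -0.37 to 0.26 for *Tagln* and -0.24 to 1.51 for *Oxtr*. In the interaction they ran from -0.38 to 0.26 for *Acta2*, -0.35 to 0.14 for *Myh11*, -1.06 to 0.18 for *Cnn1* and -0.35 to 0.35 for *Tagln*. Where no value shows it, the cause was not tested.

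In a single fit of all 5 groups, 6 members stayed called in MGN against MGWT (*Oxtr* at adjusted p = 0.064) and 6 in MGNP against MGWT (*Cnn1* at 0.107). DESeq2 called 514 genes between MGNP and MGN, 85 between TNP and TN and 356 in the interaction, where limma called 0, 7 and 0. With the replicate number as a block, 5 members were called in MGNP against MGWT, *Myh11* (-0.82) and *Cnn1* (-0.94) falling under 2-fold. Both values equal those without MGNP replicate 4, since MGWT has no replicate 4. The block changed no other count of members called. Averaging TNP replicates 1 and 2 changed no such count. Depth limits *Cnn1* in tumors, at 8 to 121 reads.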
